A study of Homo sapiens with 32 samples.

Results

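The regions described here are stretches of the genome that carried a broad peak of H3K27ac in cells kept in DMSO or in retinoic acid (RA) and lacked it in cells kept in palbociclib (PB) or in both drugs (PB+RA). H3K27ac, the acetylation of lysine 27 on histone H3, marks active promoters and enhancers. A region was selected if it overlapped, by at least 1 base, a peak in at least 3 of 4 DMSO and at least 3 of 4 RA libraries, and in at most 1 of 4 PB and at most 1 of 4 PB+RA libraries. This rule took 1243 of the 92108 regions that the authors had compared with DiffBind, and these are called PB-lost regions below. They were chosen on measured peaks, so the difference of PB or PB+RA from DMSO at these regions is a description and carries no test.

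SK-N-BE(2)C, an established human neuroblastoma line of the adrenergic (sympathetic neuron-like) type with amplified MYCN, was kept for 5 days in PB, in PB+RA, in RA or in DMSO, the solvent. The sample labels state 1 µM PB as the treatment of every sample, DMSO ones included, while their group labels separate the 4 groups, and the RA dose of 10 µM comes from the study's methods. There were 4 ChIP and 4 input libraries for each treatment, and all came from this line, so they describe 1 cell line and not neuroblastoma in general. The methods define biological replicates as separate passages. The start sites of HAND2, GATA3, ISL1, TH and DBH, which mark adrenergic cells, had a peak in all 16 ChIP libraries, whereas no region covered a start site of PTPRC, CD3E, PECAM1, CDH5 or KDR, which mark immune and endothelial cells. CD14, also an immune marker, had a start-site peak in all 16 libraries. Among markers of mesenchymal neuroblastoma cells, FN1 had a start-site peak in all 16 libraries and YAP1 in 3. No region covered a start site of PRRX1.

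PB inhibits CDK4 and CDK6, the kinases that phosphorylate the retinoblastoma protein and so release E2F factors to drive cells from G1 into S phase. RA acts through nuclear receptors, which bind DNA as pairs with retinoid X receptors. Acetylation of H3K27 is written by p300 and CBP and is found at the start sites of active genes, many of which lie in CpG islands, and at enhancers far from genes, which are usually poorer in CpG.

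Sequence is shown first, because the PB-lost regions were richer in G and C than all regions, as given below. The central 300 bases are given for 4 of the 5 PB-lost regions with the largest difference of PB below DMSO (1 region a gene), all 4 of which cover a start site that lies outside the window printed. They are read 5′ to 3′ on the plus strand of GRCh37, and capitals mark each CG dinucleotide.

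FOXD2, chr1:47903134-47903433: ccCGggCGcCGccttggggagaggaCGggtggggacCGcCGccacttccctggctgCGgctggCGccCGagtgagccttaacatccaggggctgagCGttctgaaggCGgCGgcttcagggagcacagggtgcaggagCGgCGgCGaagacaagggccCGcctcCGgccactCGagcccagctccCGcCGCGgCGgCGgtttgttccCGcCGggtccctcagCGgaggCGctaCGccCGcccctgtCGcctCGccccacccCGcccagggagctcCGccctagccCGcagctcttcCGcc
KANK4, chr1:62784583-62784882: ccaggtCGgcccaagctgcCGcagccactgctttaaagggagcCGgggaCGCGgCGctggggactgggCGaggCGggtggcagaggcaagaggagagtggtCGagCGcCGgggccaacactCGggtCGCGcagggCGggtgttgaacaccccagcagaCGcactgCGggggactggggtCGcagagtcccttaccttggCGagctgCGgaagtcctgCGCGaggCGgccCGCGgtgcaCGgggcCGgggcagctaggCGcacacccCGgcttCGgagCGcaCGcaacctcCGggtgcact
NHSL1, chr6:139013948-139014247: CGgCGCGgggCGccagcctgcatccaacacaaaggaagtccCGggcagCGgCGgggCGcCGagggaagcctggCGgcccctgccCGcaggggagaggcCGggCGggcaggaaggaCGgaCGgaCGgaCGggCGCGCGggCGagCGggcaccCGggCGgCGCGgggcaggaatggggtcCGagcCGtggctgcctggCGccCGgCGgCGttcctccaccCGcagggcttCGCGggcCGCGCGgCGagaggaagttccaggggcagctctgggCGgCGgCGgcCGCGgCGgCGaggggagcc
NECAB2, chr16:84002372-84002671: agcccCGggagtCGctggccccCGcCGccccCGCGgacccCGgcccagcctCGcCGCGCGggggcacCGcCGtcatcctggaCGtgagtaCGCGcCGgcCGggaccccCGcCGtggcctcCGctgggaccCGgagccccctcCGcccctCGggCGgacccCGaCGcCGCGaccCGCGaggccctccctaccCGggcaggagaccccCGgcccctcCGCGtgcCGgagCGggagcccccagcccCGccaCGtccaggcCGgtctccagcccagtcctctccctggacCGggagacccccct

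The window in the FOXD2 region held 35 CG dinucleotides at a GC content of 75.3%, that of NHSL1 46 at 80.3% and that of NECAB2 41 at 81.7%. That of KANK4 held 33 at 72.3%. The GC box GGGCGG, the core of Sp1 sites, was found on either strand in all 4 of these windows.

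Peak calls define the set. Of the 1243 regions, 122, 128, 262 and 180 had a peak in PB replicates 1 to 4, and 63, 37, 188 and 387 in PB+RA replicates 1 to 4. The RA libraries had a peak at 1041, 1150, 1128 and 986 of them, and the DMSO libraries at 1162, 1219, 552 and 1202. PB+RA replicate 4 thus held more of the remaining peaks than any other PB or PB+RA library, and DMSO replicate 3 lacked a peak at 691 regions, all of which had a peak in the other 3 DMSO libraries. DMSO replicate 3 had the fewest broad peaks of all 16 libraries, 64516, where the other libraries had 74677 to 104392. Read depth is unknown here.

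The peaks were weak even where present. Over PB-lost regions, the median −log10 q of a peak was between 1.41 and 1.98 in PB and PB+RA libraries, between 1.76 and 2.10 in RA libraries and between 1.88 and 2.31 in DMSO libraries. Over all regions with a peak the median was between 2.75 and 4.31 in every library. The peaks also differed in extent. They covered a median of 14.8% to 19.5% of the region in PB libraries, 10.9% to 22.9% in PB+RA libraries, 33.4% to 45.2% in RA libraries and 30.5% to 58.8% in DMSO libraries, the lowest of the last being replicate 3. Coverage in RA libraries lay below that of 3 of the 4 DMSO libraries and above that of DMSO replicate 3.

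**Figure D1:**
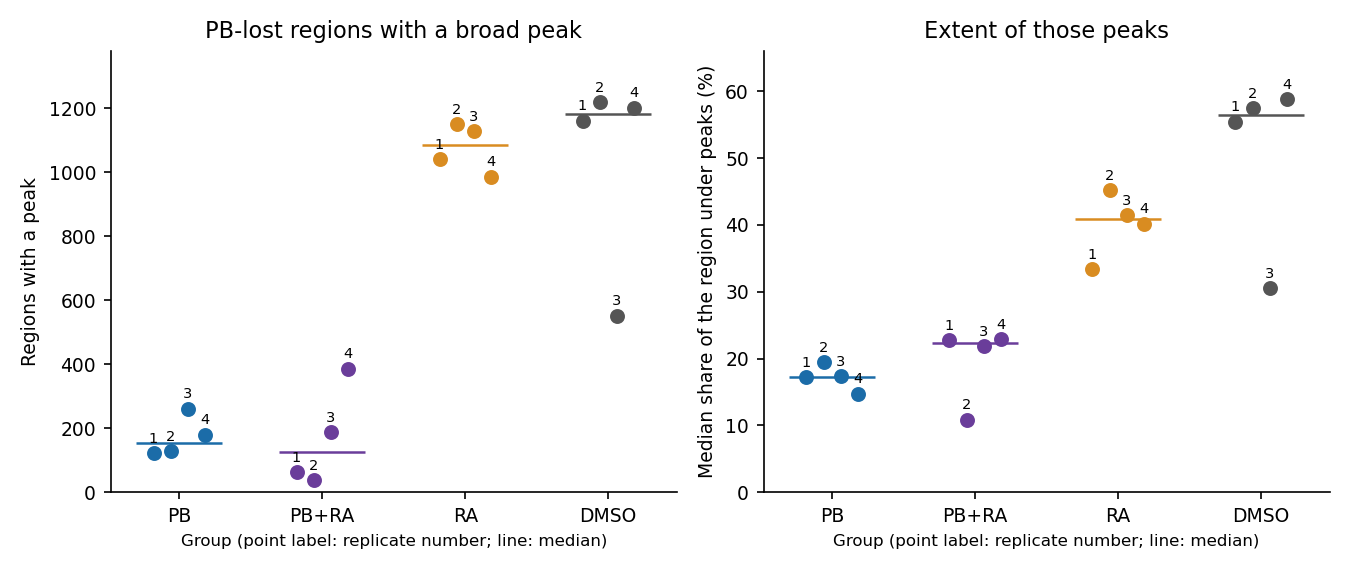
Peaks over the 1243 PB-lost regions in each of the 16 ChIP libraries (points labelled by replicate number, lines at the group medians). The left panel gives the number of regions with a peak and the right panel the median share of the region under peaks in percent, over regions with a peak in that library. DMSO replicate 3, at 552 regions, stands apart from the other 3 DMSO libraries, and PB+RA replicate 4, at 387, is the highest PB or PB+RA library.

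Only 37 regions had a peak in all 4 DMSO and all 4 RA libraries and in no PB or PB+RA library, and 287 had no peak in any PB or PB+RA library. The 117 regions just inside the rule (peaks in 1 PB, 1 PB+RA, 3 RA and 3 DMSO libraries) had a median difference of PB minus DMSO of -0.73 in the authors' mean log2 concentration, the normalized read signal of a group. Regions just outside it, with 2 of 4 libraries in the group named and the other criteria met, had medians of -0.75 (545 regions, PB), -0.89 (470, PB+RA), -0.89 (817, RA) and -0.69 (819, DMSO). The medians just inside and just outside the rule thus lay close together.

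The authors' mean concentrations use reads rather than peak calls, and they were lower with PB at nearly every PB-lost region. The difference of PB minus DMSO had a median of -0.99 on the log2 scale and was below 0 at 1242 of 1243 regions. The exception, near LHFPL2, differed by 0.08. A difference of -0.5 or less was seen at 1150 PB-lost regions (92.5%), where 26.8% of all 92108 regions had one. With PB+RA the median was -1.23, and 1174 regions (94.4%) had such a difference, against 31.7% of all regions. These counts follow from the rule in part, since it used peaks of the same libraries. No SD or n is attached to the deposited group means.

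PB+RA and PB were set side by side at the same regions. The PB+RA mean was below the PB mean at 908 PB-lost regions (73.0%), with a median difference of -0.22. Over all regions it was lower at 43.2%, with a median of 0.11. The rule used peaks of both groups, so this contrast depends on its cut and nothing is read from it. At regions just outside the rule with 2 of 4 PB+RA libraries the median was 0.14 (35.3% below 0). At those with 2 of 4 PB libraries it was -0.38 (90.6% below 0). With RA alone the difference from DMSO had a median of -0.26 at PB-lost regions and -0.01 over all regions. RA minus DMSO was -0.5 or less at 251 PB-lost regions (20.2%), near the 21.5% seen over all regions. The level in DMSO was modest, with a median of 5.31 at PB-lost regions, 5.08 over all regions and 8.09 at the 26508 regions with a peak in all 16 libraries.

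**Figure D2:**
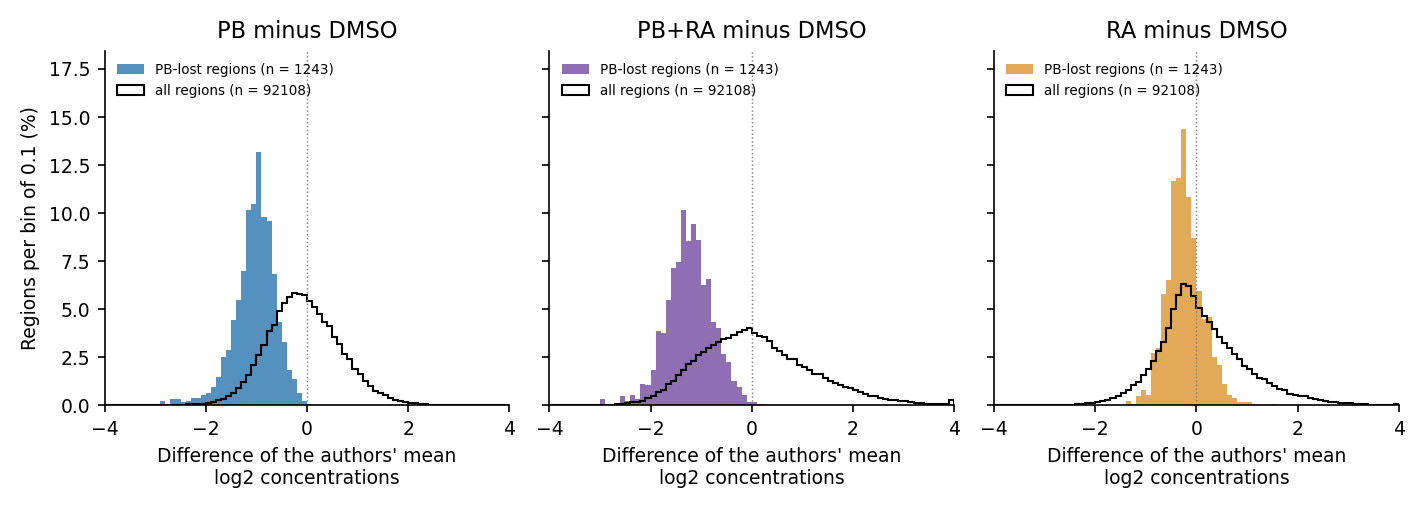
Distribution of the difference of the authors' mean log2 concentrations (x axis, log2 units) for PB, PB+RA and RA, each minus DMSO, at the 1243 PB-lost regions (filled) and at all 92108 regions (black outline), in percent of regions per bin of 0.1. Values beyond 4 in size are drawn in the end bins. The PB-lost medians are -0.99, -1.23 and -0.26.

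RA was compared with DMSO wherever 3 or 4 RA and 3 or 4 DMSO libraries had a peak, a criterion that the rule also sets. The highest fold enrichment of a peak over the region, as MACS2 gave it, was compared with limma on the log2 scale, and a library without a peak entered no value at that region. Of 39224 regions, 2.67% were called lower and 3.2% higher with RA at an adjusted p below 0.05 and a difference beyond 0.5. Of the 1243 PB-lost regions, 1 was called lower and 0 higher, and 41 (3.30%) had an unadjusted p below 0.05, against 20.4% of all regions tested. These counts are not independent of the rule, which took regions with peaks in both groups, mostly weak ones, and nothing is read from them about RA. DMSO replicate 3 gave no value at 691 of them. The median difference was 0.03 at PB-lost regions and -0.01 over all regions tested, with a median standard error of 0.15 for each. The sign of the first median and the number and direction of calls moved between settings, which the closing section gives. The largest shift came with the summed enrichment per base, which counts a missing peak as 0 and so reads extent. It called 25 PB-lost regions lower and 12 higher.

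The region called lower with RA covered a start site of SYTL1, which encodes a synaptotagmin-like protein that binds Rab27 on secretory vesicles (chr1:27675556-27676892, hg19, centre in an exon). Its fold enrichment was 3.54, 3.77, 4.46 and 5.07 in RA replicates 1 to 4, against 6.76, 5.65, 6.28 and 6.66 in DMSO replicates 1 to 4. The RA and DMSO values did not overlap. The log2 difference was -0.58 with a standard error of 0.15 (limma, adjusted p = 0.0243), and the adjusted p or the difference missed its threshold when RA replicate 1 (difference -0.49), RA replicate 2 (-0.52), DMSO replicate 1 (-0.53) or DMSO replicate 4 (-0.56) was left out. Of the PB and PB+RA libraries, PB replicate 3 had a peak there at 4.66 and PB+RA replicate 4 at 2.72.

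The median GC content of the PB-lost regions was 57.4%, and that of all regions 47.1%. The 95% interval for the first, from the order of the 1243 values, was 57.0% to 57.8% and covers counting error only. The 799 RA-lost regions, chosen by the same rule with PB and RA exchanged, had a median of 45.2%, the 1002 PB-gained regions had 39.7%, and 1596 regions that lost their peaks in all 3 treatments had 52.6%. Regions just outside the rule had medians of 54.7% to 57.1%, so a high GC content was not particular to the PB-lost regions. PB-gained regions carried peaks in 3 or 4 libraries of both PB and PB+RA, and in 0 or 1 library of both RA and DMSO. When all regions were divided into 10 classes of equal size by GC content, 784 PB-lost regions (63.1%) fell into the 2 richest classes. PB-lost regions made up 5.06% of the regions in the richest class (59.3% GC and above) and 0.0869% of those in the poorest. PB-gained regions ran the other way, with 0% and 2.99%, and RA-lost regions were most frequent in the fourth class, with 1.44%.

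The authors' mean concentrations moved with GC content across all regions too. The median of PB minus DMSO over all regions was 0.56 in the poorest class and -0.86 in the richest, and that of PB+RA minus DMSO was 0.99 and -0.87. RA minus DMSO over all regions was 0.59 and -0.17, so the change with GC content was seen with RA as well. PB-lost regions of the richest class had a median of -1.20 with PB and -1.41 with PB+RA. After subtraction of the median of all regions in the same class, the median difference of PB-lost regions was -0.44 for PB, -0.60 for PB+RA and -0.08 for RA. On that scale, 531 PB-lost regions (42.7%) lay at -0.5 or less for PB, where 15.1% of all regions did. GC content thus moved with the differences, and its part in them was not tested.

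**Figure D3:**
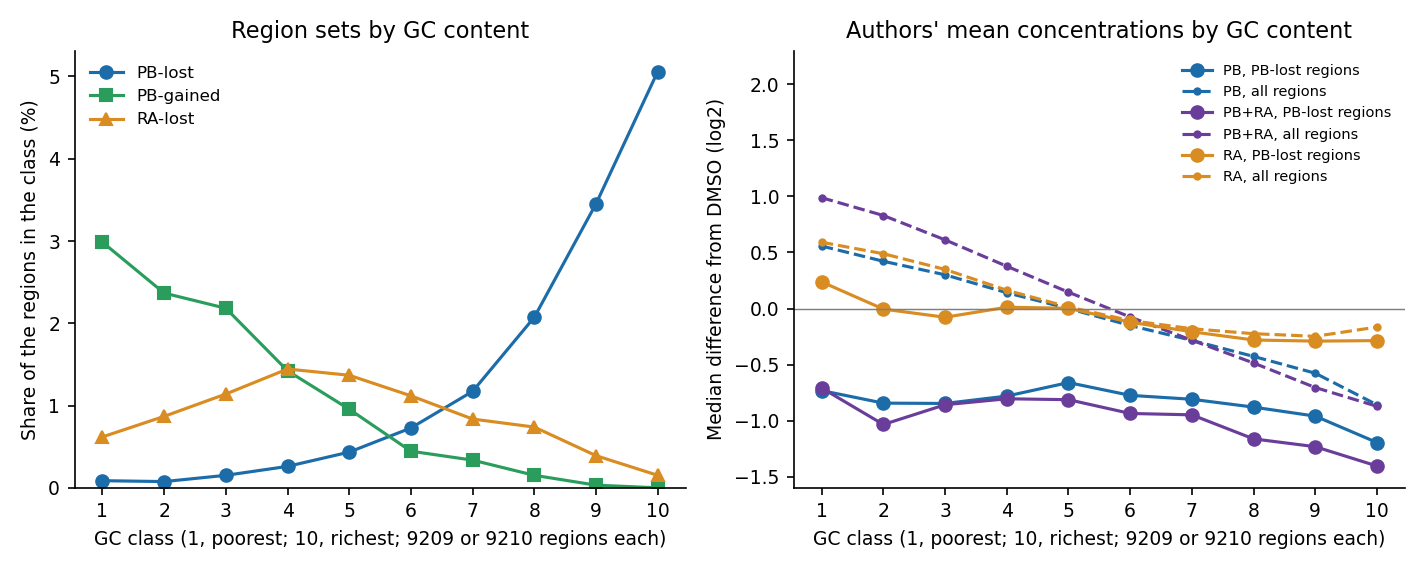
Left, the share in percent of the regions of each of 10 GC classes (x axis, 1 the poorest and 10 the richest, equal sizes) that were PB-lost, PB-gained or RA-lost. Right, the median difference from DMSO of the authors' mean log2 concentrations by class, for PB-lost regions (solid lines) and all regions (dashed lines). The share of PB-lost regions reaches 5.06% in class 10, and the dashed PB line is at 0.56 in class 1 and -0.86 in class 10.

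In position, 456 PB-lost regions (36.7%, exact 95% interval 34.0% to 39.4%) lay within 3 kb of a start site of a protein-coding gene. The share was 10.5% of RA-lost regions, 12.5% of PB-gained regions, 52.6% of regions with a peak in all 16 libraries and 29.1% of all regions. A start site was covered by 255 PB-lost regions (20.5%), close to the 19.9% of all regions. The centre lay in an exon at 16.5% of PB-lost regions, against 10.7% of all regions, in an intron at 47.0%, against 53.5%, and between protein-coding genes at 36.5%, against 35.8%.

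The PB-lost start-site regions had a low DMSO concentration for their kind, which follows in part from the rule, as it took mostly weak peaks. They were also narrower, with a median width of 2041 bases against 3274.5 for all start-site regions. The concentrations were not divided by width here, and the part of width was not tested. The median DMSO concentration of the PB-lost start-site regions was 5.58, while that of all 18294 regions covering a start site was 8.07. Their median GC content was 61.6%, against 53.6%, but the ratio of observed to expected CpG was 0.39, against 0.49. The 787 PB-lost regions farther than 3 kb from any start site had a median GC content of 56.0%, against 44.9% for all such regions, so the difference in GC content was present both at and away from start sites. PB minus DMSO had a median of -1.15 at PB-lost start-site regions, against -0.38 at all start-site regions, and of -0.95 at distal PB-lost regions, against 0.04 at all distal regions.

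Many PB-lost regions lay near a region with a peak in every library. Of the 1243, 717 (57.7%) were within 10 kb of a region with a peak in all 16 libraries, as were 37.3% of RA-lost regions, 22.0% of PB-gained regions and 40.2% of all regions that did not themselves have a peak in every library. A peak in every library does not mean an equal level, since PB minus DMSO was -0.5 or less at 25.6% of the regions with a peak in all 16. By chromosome, PB-lost regions made up 3.13% of the regions on chromosome 16, 3.03% on 22 and 2.69% on 19, and 0.289% on 18 and 0.504% on 4. The median GC content of all regions was 51.9%, 54.1% and 55.8% on the first 3 of these chromosomes and 44.4% and 41.8% on the last pair.

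Short motifs were counted on both strands of the central 300 bases. The GC box GGGCGG was present in 23.7% of PB-lost regions and 13.7% of all regions. Within regions beyond 3 kb from a start site it was in 18.6% of PB-lost and 7.62% of all regions. Letters that bind GATA factors (AGATAA) were present in 7.64% of PB-lost regions and 18.8% of all regions, and those of AP-1 (TGANTCA) in 7.88% and 11.6%. The E-box CACGTG, which MYC and MYCN bind, was in 6.68% and 4.31%, and E2F letters (TTTGGCGC, TTTCCCGC or TTTCGCGC) in 0.805% and 0.680%. The motif CAGATG of neural bHLH factors was in 22.4% of both. TEAD letters (GGAATG) were in 17.2% and 15.8%, forkhead letters (GTAAACA) in 1.69% and 4.01%, and the nuclear receptor letters AGGTCA in 20.7% and 18.9%. No searched motif contains another. A match is a description of the letters and not a bound site, and GC content moves with these shares, its part in them not tested.

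The 12 PB-lost regions with the largest difference of PB below DMSO, 1 region a gene, were compared library by library. Of these, 11 covered a start site, and their GC content was between 60.5% and 78.5%. PB minus DMSO was -2.52 or less at each, and PB+RA minus DMSO -1.22 or less. No PB library had a peak at 10 of them, and no PB or PB+RA library at 6. Their fold enrichment was between 2.83 and 9.54 in RA libraries and between 2.82 and 8.59 in DMSO libraries. The ratio of observed to expected CpG was 0.70 to 0.93 at these regions, above the 0.39 of the typical PB-lost start-site region.

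FOXD2, a forkhead transcription factor gene, held the largest difference (chr1:47902430-47904136, covering its start site). No PB or PB+RA library had a peak there. Fold enrichment was 5.65, 3.66, 4.08 and 5.30 in RA replicates 1 to 4, against 5.16, 3.78, 5.02 and 3.73 in DMSO replicates 1 to 4, so the RA and DMSO values overlapped. The authors' mean concentration was 2.59 with PB, 2.85 with PB+RA, 5.62 with RA and 5.84 with DMSO, a difference of -3.25 for PB minus DMSO.

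KANK4, which encodes an ankyrin repeat protein of the actin cytoskeleton, followed with a region over its start site of 935 bases (chr1:62784265-62785200). No PB library had a peak there and PB+RA replicate 4 had one at 3.71. RA replicates 2, 3 and 4 gave 3.404, 4.89 and 4.76, and DMSO replicates 1, 3 and 4 gave 2.82, 4.82 and 3.64. The authors' mean was 1.84 with PB, 3.78 with PB+RA and 5.00 with DMSO. PB+RA thus stood 1.94 above PB at this region, the widest such gap in the set.

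NECAB2, a neuronal calcium-binding protein gene, had a region over its start site (chr16:84001772-84003270) with a difference of -2.81 for PB minus DMSO. Its only peak among PB and PB+RA libraries was in PB+RA replicate 2, at 3.65. RA replicates 1 to 4 gave 3.77, 4.25, 9.54 and 7.18, against 6.07, 4.37, 4.50 and 8.17 in DMSO replicates 1 to 4. Values thus differed by more than 2-fold among the RA replicates, and the RA and DMSO groups overlapped.

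Start-site regions of NHSL1, a regulator of cell migration, ELF4, an ETS transcription factor, and MAP3K21, a mixed-lineage kinase, had no peak in any PB or PB+RA library and differences of -2.84, -2.70 and -2.68 for PB minus DMSO. Those of SMTNL2, a smoothelin-like protein, and LARGE2, a glycosyltransferase of dystroglycan, had -2.64 and -2.55. Those of ITPR3, a calcium release channel of the endoplasmic reticulum, and RASGEF1C, a Ras exchange factor, had -2.52 each. The region assigned to GRAPL lay 15981 bases from that gene's start site, was 377 bases wide and had -2.89. Its fold enrichment was 4.64, 4.54, 4.48 and 4.55 in RA libraries, against 6.52, 6.49, 8.23 and 5.13 in DMSO libraries, with no overlap, and the log2 difference of -0.49 did not reach 0.5 in size (limma, adjusted p = 0.0438).

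**Figure D4:**
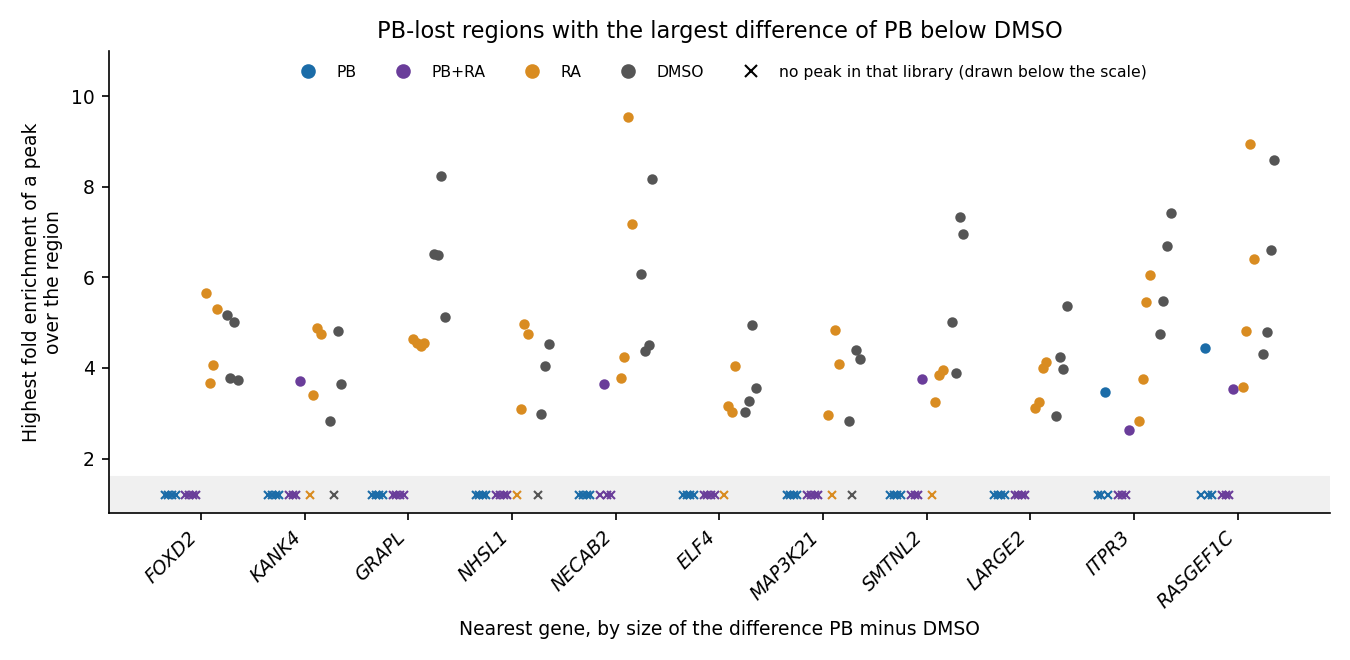
Highest fold enrichment of a broad peak over each of 11 of the 12 PB-lost regions with the largest difference of PB below DMSO, in every library of PB, PB+RA, RA and DMSO (points, 4 libraries a group), named by nearest gene. Crosses in the grey band mark libraries with no peak and have no value. RA and DMSO points lie between 2.82 and 9.54, and 9 of the 11 regions have no PB point.

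The PB-lost regions with the highest DMSO concentration and the widest ones made up 8 regions. They were 5365 to 10672 bases wide with an observed to expected CpG ratio of 0.20 to 0.44. The widest (chr22:19857547-19868219) lay 458 bases from a start site of TXNRD2, a mitochondrial thioredoxin reductase. Its fold enrichment was 3.01, 3.33, 3.18 and 3.68 in RA libraries and 3.76, 3.39, 2.96 and 3.20 in DMSO libraries, and PB+RA replicate 4 alone among the PB and PB+RA libraries had a peak, at 2.95. The authors' mean was 6.37 with PB, 6.27 with PB+RA and 7.87 with DMSO. The others lay near CACNA1A, a presynaptic calcium channel gene, SEMA5B, a semaphorin of axon guidance, BMP1, a procollagen protease, MAFA, a transcription factor of insulin-producing cells, MSLN, CROCC2 and ACCSL. PB minus DMSO lay between -1.63 and -1.04 at the 8 regions. Their width follows in part from how they were picked. Fold enrichments at the 8 regions were 2.77 to 5.00 in RA and DMSO libraries. Over all PB-lost regions with a peak, the library medians were 2.93 to 3.33 in these groups.

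Of the PB-lost regions, 1159 were assigned to 962 genes, each to the nearest start site within 100 kb, and 84 had no gene that near. These are 6.41% of the 15013 genes with any region. Most genes, 822, had 1 PB-lost region, 103 had 2, 26 had 3 and 11 had 4 or more. Of the 962 genes, 794 (82.5%) also had a region with a peak in all 16 libraries, where 77.7% of all genes with a region did. A PB-gained region was near 29 of them (3.01%), against 4.22% of all genes. Counts for the gene lists below are to be read against 6.41% of genes and 1.35% of regions.

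COL5A1, which encodes a chain of type V collagen, had the most PB-lost regions, 9 of 35. They had differences of -1.41 to -1.04 for PB minus DMSO, a median of -1.72 for PB+RA minus DMSO and -0.60 for RA minus DMSO. Of these, 8 lay inside the gene, with centres 110 to 198 kb from its start. All 35 COL5A1 regions had a PB mean below the DMSO mean, where 55.2% of all regions did. The gene was picked for its PB-lost regions, which are among the 35, and the 55.2% was not matched for GC content. The 6 COL5A1 regions with a peak in all 16 libraries had a median difference of -1.07, much as the PB-lost ones did at -1.16, but their median DMSO concentration was 8.35 where that of the PB-lost ones was 6.28. At this gene the PB-lost regions thus had the lower DMSO level and a similar difference. Both sets were chosen on peaks, so the lower level follows in part from the choice. The PB-lost regions were also 1032 to 4483 bases wide, and those with a peak in all 16 libraries 3760 to 16734. Concentrations were not divided by width, and its part was not tested.

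**Figure D5:**
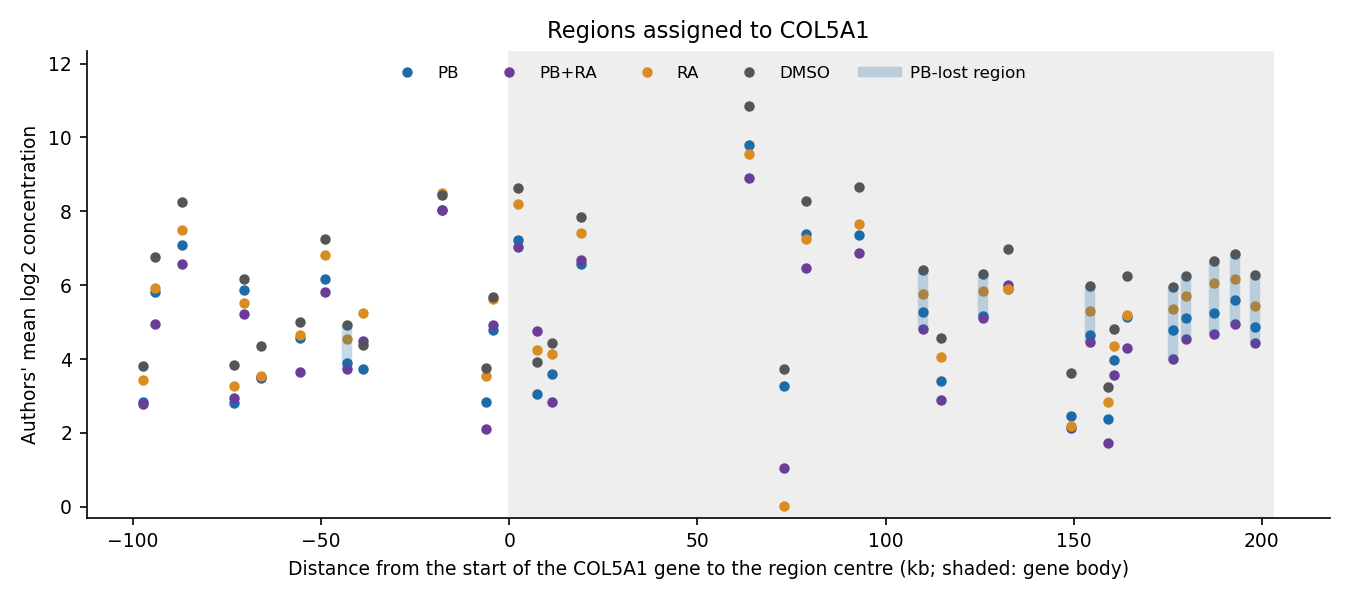
The authors' mean log2 concentration (y axis) in PB, PB+RA, RA and DMSO at the 35 regions assigned to COL5A1, against the distance in kb of the region's centre from the start of the gene (shading, the gene body). Blue bars mark the 9 PB-lost regions, of which 8 lie 110 to 198 kb inside the gene, and the DMSO point is above the PB point at all 35.

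The other genes with 4 or more PB-lost regions were described in the same way. WNT7B, a Wnt ligand gene, had 5 of 23, and AXIN1, a scaffold of the complex that degrades beta-catenin, 5 of 14. CLEC16A, a regulator of mitophagy, had 5 of 39, and ZFP36L2, an RNA-binding protein that promotes mRNA decay, 5 of 18. There were 4 each near NOTCH1 (of 16), RXRA (of 25), CASZ1 (of 32), SEMA5B (of 19), SLC39A11 (of 66) and TBCD (of 26). The PB mean was below the DMSO mean at all 23 regions of WNT7B, all 16 of NOTCH1 and all 25 of RXRA. It was so too at all 32 of CASZ1 and all 26 of TBCD. The counts were 13 of 14 at AXIN1, 36 of 39 at CLEC16A and 17 of 18 at ZFP36L2. They were 17 of 19 at SEMA5B and 55 of 66 at SLC39A11. Over all regions, the PB mean was lower at 55.2%, a share not matched for GC content. The genes were picked for their PB-lost regions, which these counts include. The median over all regions of WNT7B was -1.40, where its PB-lost regions had -1.13, so the difference was not limited to the PB-lost regions. None of these 11 genes had a PB-gained region, against 4.22% of all genes, and 11 genes are too few to tell this from that share.

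RXRA, the retinoid X receptor alpha gene and a partner of RA receptors, had PB-lost regions 19319 to 99258 bases from its start sites. The nearest (chr9:137188302-137189625) had fold enrichments of 2.77, 2.97, 3.21 and 3.02 in RA libraries, against 3.43, 3.005 and 2.94 in DMSO replicates 1, 2 and 4. PB+RA replicate 4 had a peak at 2.76. PB minus DMSO was between -1.47 and -1.34 at the 4 regions. TGM2, a transglutaminase induced by RA, was the other of 17 genes of the RA response list with a PB-lost region, with -1.25.

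The 2 lists of cell cycle genes each held 2 genes with a PB-lost region, too few to tell their shares apart. Of 51 E2F target and cell cycle genes with a region, 2 had a PB-lost one (3.92%), with 3 of 191 regions (1.57%). These were MCM3 and MCM5, which encode subunits of the replicative helicase, and their regions lay 26374 bases (MCM3) and 7678 and 46623 bases (MCM5) from the start. PB minus DMSO was -1.76 near MCM3 and -0.63 and -0.66 near MCM5. Of 17 regulators of G1, RB1 and CDKN1C had one (11.8% of genes, and 2.53% of 79 regions), too few genes to tell from the share of all genes. The RB1 region (chr13:48891018-48893691) lay in an intron with a difference of -0.81.

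CDKN1C, which encodes the CDK inhibitor p57, had its start site covered by a PB-lost region of 74.8% GC (chr11:2905492-2908078). No PB or PB+RA library had a peak there. Fold enrichment was 5.15, 6.07, 4.43 and 5.33 in RA replicates 1 to 4, against 5.47, 3.57, 3.90 and 3.27 in DMSO replicates 1 to 4. The values overlapped, and the log2 difference of 0.41 did not pass (limma, adjusted p = 0.154). The authors' mean was 3.26 with PB, 3.96 with PB+RA and 5.62 with DMSO. FGFR3, a fibroblast growth factor receptor gene named here after its values were seen, had the same pattern of peaks over its start site (chr4:1794191-1797211), with 3.61, 3.52, 4.85 and 4.84 in RA libraries and 3.35, 4.21, 5.56 and 5.51 in DMSO libraries. Its PB minus DMSO was -2.43.

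Of 20 adrenergic core regulatory genes with a region, 5 (25%) had a PB-lost region, and none at a start site. They were GATA2, a zinc finger factor (-1.37 for PB minus DMSO), TCF3, a bHLH partner (-1.15 and -0.91), KLF7, a Krüppel-like factor (-1.11 and -0.80), ZNF536, a zinc finger repressor (-0.76 and -0.70), and LMO1, a LIM-only protein and neuroblastoma oncogene (-0.32). These 8 were among the 260 regions of the list (3.08%), where 1.35% of all regions were PB-lost. By gene the share over all genes was 6.41%, but the number of regions a gene was not matched. The median over the 260 regions was -0.15. None of the 53 regions near 4 retino-sympathetic genes was PB-lost, too few regions to tell this from the share over all regions.

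Of 27 kidney and gland development genes, 3 (11.1%) had PB-lost regions, 5 of 172 regions (2.91%). These are too few genes to tell from the share of all genes. SIX2, a factor of nephron progenitors, had -2.14, LHX1, a LIM homeobox factor, had -1.94, -1.41 and -1.004 at 3 regions, and FOXD1 had -1.64. At SIX2 (chr2:45240459-45241791, 3869 bases from the start site) no PB library had a peak and PB+RA replicate 4 had one at 3.02. RA libraries gave 4.57, 3.77, 7.06 and 5.67, against 4.47, 6.11, 6.45 and 6.003 in DMSO libraries. The groups overlapped. FOXD1, FOXD2 and FOXN3 were the 3 of 28 forkhead genes (10.7%, and 1.79% of their regions), again too few genes to tell. No HOX gene of 18, with 27 regions, and no neural crest or Schwann gene of 18, with 93, had a PB-lost region. These are too few regions to tell this from the 1.35% of all regions.

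Of 61 genes of Wnt, BMP, FGF and hedgehog ligands and modulators, 5 (8.20%) had PB-lost regions, 9 of 366 (2.46%). WNT3 had -1.31 and WNT9A -0.63, both Wnt ligands, and SFRP1, a secreted Wnt antagonist, had -1.18. GDF6, a BMP family ligand, had -1.14 at a PB-lost region over its start site, and PB+RA minus DMSO was -0.55 there. PB replicate 3 had a peak at 3.46 and PB+RA replicate 4 at 4.02, against 2.75, 3.50 and 3.81 in DMSO replicates 2, 3 and 4. Of 29 mesenchymal state genes, 3 (10.3%) had PB-lost regions, 4 of 209 (1.91%), too few genes to tell from the share of all genes. SNAI1, a repressor of epithelial genes, had -1.17 and -0.81, FOSL1, an AP-1 subunit, -1.14, and PRRX2 -1.10. FOSL1 and GDF6 had RA means 0.70 and 0.65 above the DMSO mean, while neither passed the test of fold enrichment (limma, adjusted p = 0.849 and 0.307).

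The shares of genes with a PB-lost region were 6.52% (neuronal transcription factors), 4.65% (axon and neurite) and 7.69% (dense-core vesicle and catecholamine). These lay near the 6.41% of all genes and rest on 2 or 3 genes a list, too few to tell them apart. POU4F2, EBF1 and MYT1L were the 3 of 46 neuronal transcription factor genes (6.52%, and 1.03% of regions), with -1.62, -0.49 and -0.55. NEFH, a neurofilament subunit, and PLXNA4, a semaphorin receptor, were the 2 of 43 axon and neurite genes, with -1.15 and -0.92, and they held 2 of the 676 regions of that list (0.296%), below the 1.35% of all regions. VIP, a neuropeptide, had -1.07 and -0.75 and PTPRN2, a dense-core vesicle protein, had -0.71, among 26 dense-core vesicle and catecholamine genes. The VIP regions were unusual for the set in having 33.4% and 35.8% GC. Of 16 housekeeping genes 1 had a PB-lost region (YWHAZ, -0.87), and of 10 immune and 8 endothelial genes none had. These lists are too short to tell such counts from the share over all genes.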

How the data were processed

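H3K27ac ChIP-seq of SK-N-BE(2)C cells gave 16 ChIP and 16 input libraries, and only ChIP libraries have values of their own here. Per the submitters' processing notes, the authors used fastp 0.12.4, Bowtie2 2.4.4 with hg19, MACS2 2.2.7.1 and DiffBind 3.4. Broad peaks were called per library against input, and the authors deposited for each peak a ratio (fold enrichment over input) and a −log10 p-value and q-value. The deposited DiffBind tables hold log2 concentrations averaged by group, used here as the authors' mean, and the authors' fold, p-value and FDR, which were not used. Their coordinates are printed as deposited. All columns of values per sample were matched to a sample, and read depth is unknown.

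Regions were intersected with peaks and with gene features by bedtools 2.31.1, run from Python 3.11.15. GC content was read from GRCh37 and start sites from GENCODE 44 lifted to it. Of the regions, 16 lay outside the reference, none of them PB-lost. For RA against DMSO, the log2 of the highest fold enrichment over a region was centred on the library median and fitted with limma 3.58.1 (R 4.3.3), with Benjamini-Hochberg adjustment over all regions that had a peak in 3 of 4 libraries of each group. The fit was tested on simulated data. The p-values measure the spread between 4 libraries a group. The members and the 17 gene lists were chosen with earlier results of these data known.

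Named regions were the 12 with the largest difference of PB below DMSO (1 a gene), the 6 highest in DMSO, the 6 widest, any called in the RA test (up to 5 each way), those near listed genes, and the genes with most members. Some items among these are not reported here. Alternatives changed the peak threshold, overlap, number of peaks, peak criteria, start-site window, GC window, scaling, pairing and each library in turn.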

Additional observations from a re-analysis of the deposited data

Results flagged for a closer look

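In a group of 4 libraries a value was noted where its gap to the nearest library took up more of the group's range than Dixon's 95% critical value, which chance alone does in about 1 in 20 groups. Of 39 groups of values examined, 1 was noted. DMSO replicate 3 had a peak at 552 PB-lost regions, where the other DMSO libraries had 1162, 1219 and 1202. Without this library, and with 2 of the other 3 DMSO libraries required, the rule took 1906 regions in place of 1243. Its 64516 broad peaks move with this value, and their part in it was not tested. The noted count was not the only value apart. The median share of a PB-lost region under peaks was 30.5% in DMSO replicate 3 and 55.5%, 57.4% and 58.8% in DMSO replicates 1, 2 and 4. The median −log10 q over PB-lost regions was 2.31 in DMSO replicate 1 and 1.93, 1.94 and 1.88 in DMSO replicates 2, 3 and 4.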

How the results depend on the processing

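The median differences of the authors' means stayed below 0 under every alternative run. For PB and PB+RA this follows in part from the selection, since each set was chosen on peaks lacking in those libraries. Nothing is read from that sign. The set itself depended on how peaks were read, and the cause was not tested. Peaks with −log10 q of at least 5 gave 230 regions, of which 2 were among the 1243, with 65.7% within 3 kb of a start site, 61.1% GC and median differences of -1.29 (PB) and -0.15 (RA). Peaks covering at least 50% of the region gave 1358 regions, 54 of them shared, with 55.9% near a start site and -0.79 (PB) and -0.89 (PB+RA). An equal number of peaks per library gave 726 regions, 283 of them shared, with 39.7%, 58.2% GC, -1.02 (PB), -1.16 (PB+RA) and -0.18 (RA). Peaks in all 4 DMSO and RA libraries and in no other gave 37 regions with 45.9%, 59.4% GC, -1.32 (PB) and -1.49 (PB+RA). With no criterion on RA there were 3656 regions with 28.3%, 55.2% GC, -0.93 (PB), -1.28 (PB+RA) and -0.53 (RA). Within 1 kb the start-site share was 25.8%, against 22.8% of all regions, with start sites of all gene types it was 47.9%, against 38.7%, and the central 300 bases had 58.7% GC. Centring within 10 GC classes, chosen after seeing the data, gave -0.44 (PB), -0.60 (PB+RA) and -0.080 (RA). Leaving out 1 library at a time, with 2 of the other 3 required, gave 1369 to 1906 regions (1906 without DMSO replicate 3), 33.3% to 37.8% near a start site, 56.3% to 57.6% GC, and -0.99 to -0.89 (PB), -1.24 to -1.10 (PB+RA) and -0.31 to -0.14 (RA).

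In limma, RA against DMSO called 1 PB-lost region, lower with RA. It called 2 with no centring (0 higher), 6 with GC-class centring (4 higher, 2 lower), 37 with summed enrichment per base (12 higher, 25 lower), 4 with no fold minimum (2 higher, 2 lower), 0 of 2 tested with the stricter peaks (0 at an unadjusted p below 0.05), and 1 to 4 without 1 library (4 higher and 0 lower without DMSO replicate 1). The median difference was 0.03, and -0.03 with quantile normalization, -0.12 with summed enrichment and -0.01 without DMSO replicate 4, so its sign is not settled. SYTL1 was not called with summed enrichment per base. With the replicate block it called 5 (3 higher, 2 lower), and 8 with the block and GC-class centring (6 higher, 2 lower). Same-numbered RA and DMSO libraries had correlations of 0.18, 0.26, 0.06 and 0.38 in their deviations, and RA replicates 1 and 3 correlated best with another number, so the numbers were not taken as pairs.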
